A study of Mus musculus with 8 samples.

Results

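Sox13, Sox4 and Tcf7 are transcription factor genes that share the HMG box, a DNA-binding domain that bends DNA at the minor groove. They were taken by name as regulators of innate-like gamma delta T cells, 3 genes of the 14033 gene symbols in the authors' deposited table, and each had 1 row there. These genes and the gene lists used below were chosen with earlier results of these data known. Counts of those that passed are therefore descriptive and test nothing. The cells came from mouse fetal liver on embryonic day E14.5, from embryos of Flt3-Cre mice crossed to mTmG mice. The mTmG reporter makes the red protein Tomato in every cell until Cre recombination switches the cell and its progeny to green GFP. GFP therefore records a history of Flt3-Cre activity. Both fractions carried these same alleles and the same surface gate, lineage-negative and positive for Kit, Sca1 and CD150. The sample titles name CD150 without a plus sign, so they do not themselves state that the cells were positive for it. The GFP+ fraction (4 libraries) had recombined and the Tomato+ fraction (4 libraries) had not. The sort tells history from the reporter alone, so a GFP+ cell need not express Flt3 at the time of sorting. The labels do not say whether the libraries came from separate embryos, and the authors' p-values then reflect no more than library-to-library spread, which can be technical.

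In mouse, Sox13 is a SOXD factor that marks gamma delta T cells early and is needed for the subset that makes interleukin-17. Sox4 is a SOXC factor needed for early B cell development and, with Sox13, for those same gamma delta T cells. Tcf7 encodes TCF-1, a partner of beta-catenin that starts the T cell programme downstream of Notch and also serves innate lymphoid progenitors. SOX and TCF proteins read related short DNA cores, and SOX13 is known to bind TCF-1.

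The 250 bases before the RefSeq start of Sox4, whose mean was higher in GFP+ cells, are shown because they lie almost wholly before the gene's annotated exons. The window was matched by symbol and is of build GRCm38.p6, not of mm9, the build of the authors' data. It lies at chr13:28953700-28953949 on the minus strand and is printed 5′ to 3′ in the direction of the gene, and its last 14 bases fall in the first exon of GENCODE M21. Capitals mark matches on either strand to the motifs searched.
Sox4: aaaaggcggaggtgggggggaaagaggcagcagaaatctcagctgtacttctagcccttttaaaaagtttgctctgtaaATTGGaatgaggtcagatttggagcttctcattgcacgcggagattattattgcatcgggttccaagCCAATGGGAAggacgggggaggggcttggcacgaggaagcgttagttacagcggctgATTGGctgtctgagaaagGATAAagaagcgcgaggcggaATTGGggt

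The motifs were a TCF/LEF core (CTTTGA or CTTTGT), a SOX core (ACAAT), an RBPJ core (TGGGAA), the CCAAT box (CCAAT) and a GATA core (GATAA), and they were chosen after the sequences were seen. The TCF/LEF and SOX cores do not occur in the Sox4 window, while 27.6% and 27.7% of 32851 RefSeq windows of this length hold them. The RBPJ core, the letters read by the DNA-binding partner of Notch, occurs once, and in 21.6% of all windows. The CCAAT box occurs 4 times, once overlapping the RBPJ core, and in 33.8% of all windows. The GATA core occurs once, and in 22.6% of all windows. These matches describe the letters and show no binding. The windows of the other genes are not shown: 165 of the 250 bases for Sox13 fall in GENCODE exons of the gene. Of the Tcf7 windows, the more upstream one ends in an open frame of 55 codons that starts at an ATG, and the other has 67 bases in GENCODE exons.

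Mean normalized counts of all 3 genes were higher in the GFP+ than in the Tomato+ fraction, and all 3 passed the authors' adjusted p of 0.05. Of 14268 rows in the authors' deposited table, 7.49% passed, 4.86% as higher and 2.64% as lower in GFP+. A normalized count is a read count scaled for library depth, and the authors gave only its mean over each fraction's 4 libraries. Values of single libraries were therefore not analysed here, and neither their spread nor any overlap between the fractions can be given. In such bulk samples, a larger share of cells that express a gene and more RNA per cell cannot be told apart.

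Sox13 averaged 577 normalized counts in GFP+ cells and 304 in Tomato+ cells per the authors' deposited table. It rose 1.90-fold, a log2 difference of 0.92 (the authors' adjusted p = 5.31e-06), and its p-value ranked 196 of all rows. With a Bonferroni adjustment of the authors' p-values over all rows it still passed (adjusted p = 0.00104). Sox13 combined a mid-range level, above that of 69.4% of rows, with the smallest p-value of the 3 genes.

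Sox4 averaged 2619 normalized counts in GFP+ cells and 1945 in Tomato+ cells per the authors' deposited table. It rose 1.35-fold, a log2 difference of 0.43 (the authors' adjusted p = 0.00321). The gene was abundant in both fractions, above 96.5% of all rows, and had the largest absolute difference of the 3 at 674 normalized counts. Its relative change was the smallest of the 3. Abundant rows as a whole leaned towards GFP+: the 1223 other rows with an overall mean within 2-fold of that of Sox4 had a median log2 difference of 0.14. Of these rows, 6.87% had a log2 difference at least as large as that of Sox4. When both fractions were scaled to the same total, which lowers every log2 difference by 0.16, that of Sox4 was 0.27. With a Bonferroni adjustment of the authors' p-values it no longer passed (adjusted p = 1).

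Tcf7 averaged 65.2 normalized counts in GFP+ cells and 19.7 in Tomato+ cells per the authors' deposited table. It rose 3.30-fold, a log2 difference of 1.72 (the authors' adjusted p = 0.000471), the largest relative change of the 3. Its level was low, above only 23.3% of rows, and with a Bonferroni adjustment of the authors' p-values it no longer passed (adjusted p = 0.172). Rows with low means scatter widely: among the 2391 other rows within 2-fold of its overall mean, the central 90% of log2 differences ran from -1.27 to 1.38, and 3.56% were at least as large as that of Tcf7. The same interval for the 4941 rows near Sox13 was -0.43 to 0.40, and 0.91% of them reached the value of Sox13.

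**Figure D1:**
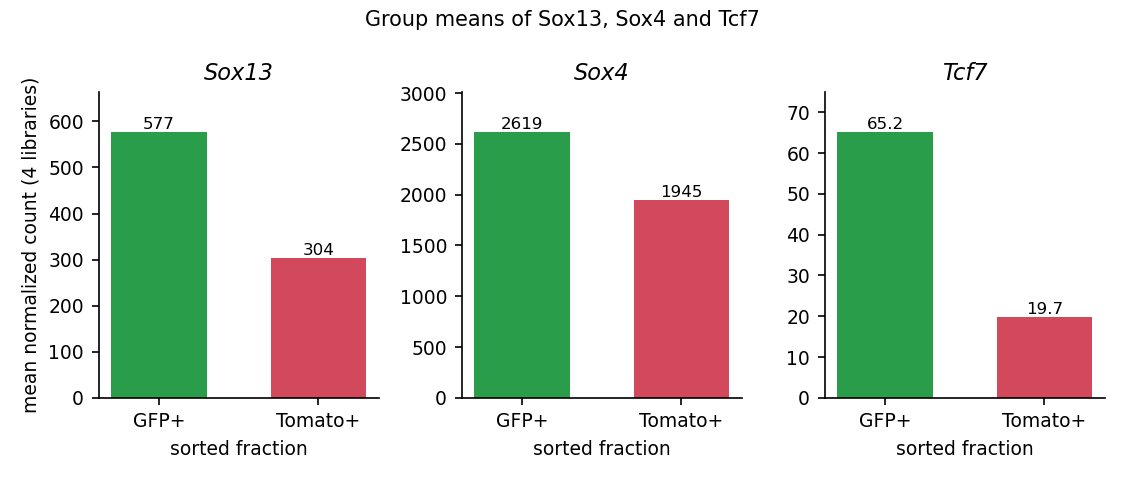
Mean normalized counts of Sox13, Sox4 and Tcf7 in GFP+ and Tomato+ cells, each bar the authors' mean over 4 libraries with a scale of its own per gene. No error bars are drawn because values of single libraries were not analysed. Every GFP+ bar is higher, at 577 against 304 for Sox13, 2619 against 1945 for Sox4 and 65.2 against 19.7 for Tcf7.

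**Figure D2:**
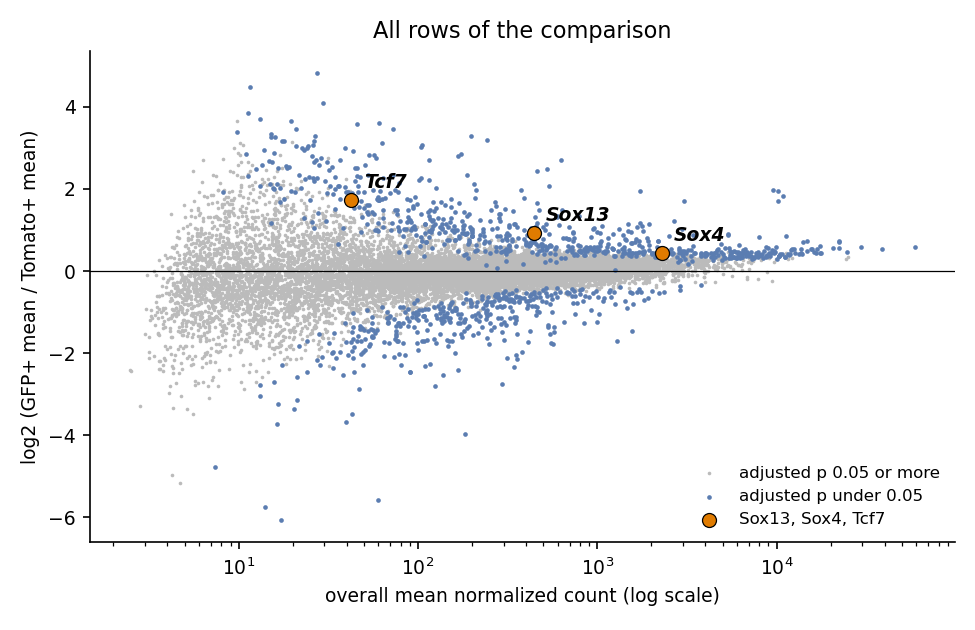
Log2 ratio of the GFP+ over the Tomato+ mean (vertical axis) against the overall mean normalized count (horizontal axis, log scale) for all 14268 rows, with rows at the authors' adjusted p under 0.05 in blue. The 3 labelled genes lie above 0, at log2 differences of 1.72 for Tcf7, 0.92 for Sox13 and 0.43 for Sox4, in order of rising overall mean.

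Among the 693 rows called higher in GFP+, 134 had a larger log2 difference than Tcf7, 302 than Sox13 and 574 than Sox4. The 3 differences were not tested against each other. To set levels of different genes side by side, the means were divided by the length of each gene's merged exons in GENCODE M21, which stands in for the authors' gene models. Per kilobase, Sox4 had 546 normalized counts in GFP+ cells and 406 in Tomato+ cells. The level of Sox13 per kilobase was 134 in GFP+ and 70.6 in Tomato+, and that of Tcf7 was 24.8 in GFP+ and 7.52 in Tomato+. The order Sox4, Sox13, Tcf7 was thus the same in both fractions, but the ratios between the levels were smaller in GFP+. That restates the fold changes above, because exon length is the same in both fractions. The level of Sox4 was 22.0 times that of Tcf7 in GFP+ and 54.0 times in Tomato+, and it was 4.08 times that of Sox13 in GFP+ and 5.75 times in Tomato+.

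No other measured Sox gene passed. Of 19 listed Sox genes 8 were measured, of which Sox13 and Sox4 rose and 0 fell, against 4.86% and 2.64% of all rows. Sox13 and Sox4 were themselves chosen with earlier results of these data known, so this count is no test of the family. The family median log2 difference was -0.24, against 0.01 over all rows. That median was 0.06 once members with a mean under 50 were dropped. Sox12, the SOXC relative of Sox4, averaged 563 in GFP+ and 597 in Tomato+ (adjusted p = 0.893, the authors' deposited table). Sox6, the SOXD relative of Sox13, averaged 102 in GFP+ and 98.0 in Tomato+ and did not pass (adjusted p = 0.392, the authors' deposited table). The other SOXD gene, Sox5, was not analysed here. Sox4 and Sox13 thus passed and these relatives did not, but the difference between relatives was not tested.

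The SOXF genes of endothelium and blood-forming endothelium had lower means in GFP+ without passing. Sox18 averaged 110 in GFP+ and 168 in Tomato+ and had a log2 difference of -0.61 (adjusted p = 0.214, the authors' deposited table). Sox17, which sustains fetal stem cells in mouse, and Sox7 were near the bottom of the table, with means of 3.86 and 2.04 in GFP+ and 5.05 and 4.55 in Tomato+. Sox11, the remaining SOXC gene measured, averaged 1.31 in GFP+ and 5.97 in Tomato+ (adjusted p = 0.810, the authors' deposited table). None of these 3 passed. Per kilobase, Sox13 was the second of the 15 measured Sox, TCF/LEF and TOX genes in GFP+ cells, where it lay next to Sox12 at 134 and 126, and the fifth in Tomato+ cells.

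Of the 4 TCF/LEF genes, the chosen gene Tcf7 alone passed, while 7.49% of all rows did. Lef1, the closest partner of Tcf7 in T and B progenitors, averaged 18.9 in GFP+ and 2.26 in Tomato+, a log2 difference of 3.06 that did not pass (adjusted p = 0.167, the authors' deposited table). Tcf7l1, which acts mainly as a repressor, averaged 24.5 in GFP+ and 49.0 in Tomato+, and did not pass (adjusted p = 0.214, the authors' deposited table). Tcf7l2 averaged 154 in GFP+ and 161 in Tomato+ (the authors' deposited table). Per kilobase, Tcf7 had the highest level of the family in GFP+ cells, 24.8 against 17.6 for Tcf7l2, whereas in Tomato+ cells Tcf7l2 with 18.4 and Tcf7l1 with 12.5 stood above Tcf7 with 7.52. The order in GFP+ rests on the exon lengths used, 2.6 kb for Tcf7 and 8.8 kb for Tcf7l2. Before division, Tcf7l2 had the higher mean in GFP+, 154 against 65.2 for Tcf7. The open frame of 55 codons in the more upstream Tcf7 window lies outside the exons counted for Tcf7. If the authors' gene model holds that frame, the 2.6 kb used is too short and the level of Tcf7 per kilobase too high. The spread behind the change of order between the fractions was not analysed.

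Tox, an HMG-box factor of T and innate lymphoid development, averaged 186 in GFP+ and 95.9 in Tomato+ per the authors' deposited table. It rose by a log2 difference of 0.96 (adjusted p = 0.0242, the authors' deposited table), close to that of Sox13. Tox2 and Tox4 did not pass, with means of 7.05 and 695 in GFP+ and 3.29 and 718 in Tomato+. Of 16 further measured HMG-box genes, most of them chromatin proteins without a preferred sequence, 2 rose and 0 fell. Of all rows, 4.86% rose and 2.64% fell. The median log2 difference of these 16 genes was 0.09, and -0.06 with equal totals, against 0.01 and -0.15 over all rows. The architectural proteins Hmgb1 and Hmgb2 rose by 0.55 and 0.36 on the log2 scale (adjusted p = 0.00158 and 0.0258, the authors' deposited table), among the most abundant genes at 14753 and 8056 in GFP+ and 10104 and 6275 in Tomato+. Without the 3 genes described here, 3 of the 28 other measured HMG-box genes rose and 0 fell, and their median log2 difference was -0.03.

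**Figure D3:**
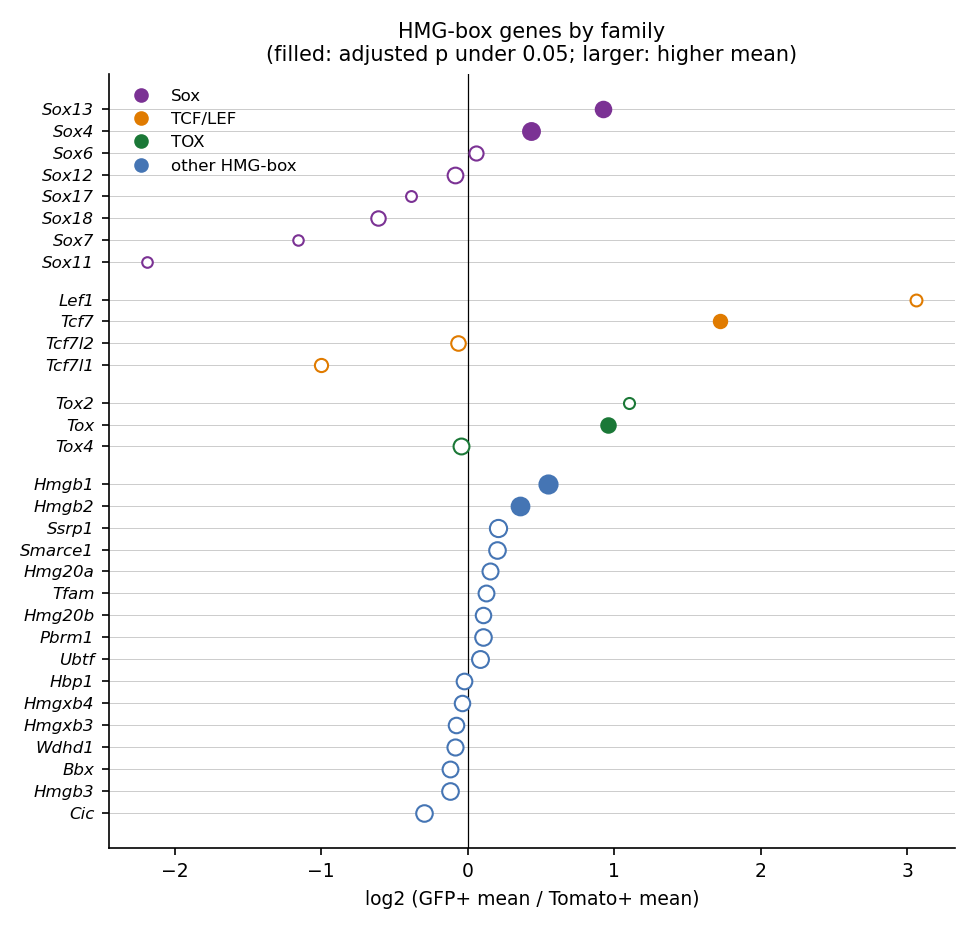
Log2 ratio of the GFP+ over the Tomato+ mean (horizontal axis) for each of the 31 measured HMG-box genes, grouped by family and sorted within it. Filled points passed the authors' adjusted p of 0.05 and larger points have a higher overall mean. The 6 filled points, Sox13, Sox4, Tcf7, Tox, Hmgb1 and Hmgb2, all lie above 0.

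Genes that act with these factors in innate-like gamma delta T cells were covered only in part. Of 28 listed regulators and effectors 17 were measured, of which 4 rose and 0 fell, against 4.86% and 2.64% of all rows. The median log2 difference was 0.13, against 0.01 over all rows. With equal totals these medians were -0.03 and -0.15. Il7r, the interleukin-7 receptor on which gamma delta T cells depend, averaged 184 in GFP+ and 22.6 in Tomato+ (adjusted p = 3.92e-14, the authors' deposited table). Il1r1, an interleukin-1 receptor, averaged 140 in GFP+ and 46.9 in Tomato+ (adjusted p = 0.000611, the authors' deposited table). Cd27, a costimulatory receptor, and Id2, an inhibitor of E proteins, rose by 0.49 and 1.02 on the log2 scale (adjusted p = 0.0268 and 0.0313, the authors' deposited table). Of the 4 that rose, Il7r and Id2 are counted again among the early T and innate lymphoid progenitor genes, and Il7r also among the B progenitor genes. Gata3 and Zbtb16, transcription factor genes of T and innate-like T cells, chosen after their values were seen, did not pass, with means of 53.6 and 39.8 in GFP+ and 90.0 and 55.4 in Tomato+ per the authors' deposited table. The genes Blk, Il17a, Il17f, Il23r and Ccr6 were not analysed here.

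Among early T and innate lymphoid progenitor genes 11 of 22 measured rose and 1 fell, against 4.86% and 2.64% of all rows. Their median log2 difference was 0.93. The 6 with the smallest p-values were Ccr9, Rag1, Il7r, Notch1, Rag2 and Nfil3, all higher in GFP+. Notch1, whose signal turns on Tcf7 in the thymus, averaged 2384 in GFP+ and 1213 in Tomato+, a log2 difference of 0.98 (adjusted p = 1.89e-11, the authors' deposited table). Nfil3, a factor of innate lymphoid progenitors, averaged 150 in GFP+ and 42.8 in Tomato+ (adjusted p = 5.12e-05, the authors' deposited table). Gfi1, chosen after its values were seen, was the 1 gene that fell, by 0.75 on the log2 scale (adjusted p = 0.000766, the authors' deposited table). Bcl11b, a T commitment factor, and the CD3 genes Cd3d, Cd3e and Cd3g were not analysed here.

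Of the cofactors of TCF-1, 1 passed, and of the Wnt targets, 3 did. Over all rows 7.49% passed. Of 27 measured beta-catenin and TCF cofactors 1 rose and 0 fell, and the median log2 difference was -0.04. That gene was Tle3, a Groucho corepressor that binds TCF proteins, with means of 1051 in GFP+ and 719 in Tomato+ (adjusted p = 0.00151, the authors' deposited table). Of 11 measured Wnt target genes 3 rose and 0 fell, and the 3 were Ccnd1, Myc and Tcf7 itself, with log2 differences of 0.89, 0.59 and 1.72 per the authors' deposited table. Axin2, the feedback inhibitor used as a readout of canonical Wnt signalling, chosen after its values were seen, averaged 6.63 in GFP+ and 10.7 in Tomato+ per the authors' deposited table and did not pass. Dkk1, a secreted Wnt inhibitor chosen likewise, averaged 6.60 in GFP+ and 29.3 in Tomato+ and did not pass (adjusted p = 0.0977, the authors' deposited table).

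Sox4 and Lef1 also serve B cell progenitors. Of 16 measured B progenitor genes 8 rose, 0 fell and 8 did not pass, against 7.49% passing over all rows, with a median log2 difference of 3.04, and 3 of those that rose, Il7r, Rag1 and Rag2, also stand in the early T list. Most B progenitor genes had low means, and the median over the 6 with a mean of at least 50 was 1.31. Rag1 averaged 359 in GFP+ and 36.6 in Tomato+, and Ebf1, the B lineage specification factor, 43.4 in GFP+ and 5.22 in Tomato+ (adjusted p = 2.42e-25 and 9.16e-05, the authors' deposited table). Rag2 and the B lineage genes Pou2af1 and Igll1, the rest of the 6 with the smallest p-values beside Il7r, had log2 differences of 2.25, 4.08 and 4.82 in that same deposited table of the authors. Among 8 measured genes of fetal and innate-like B lymphopoiesis 2 rose and 0 fell, with a median of 0.32. These were Hmga2, a chromatin protein of fetal stem cells, and Igf2bp3, a fetal RNA-binding protein, at log2 differences of 0.37 and 0.53 (adjusted p = 0.00859 and 0.0139, the authors' deposited table).

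**Figure D4:**
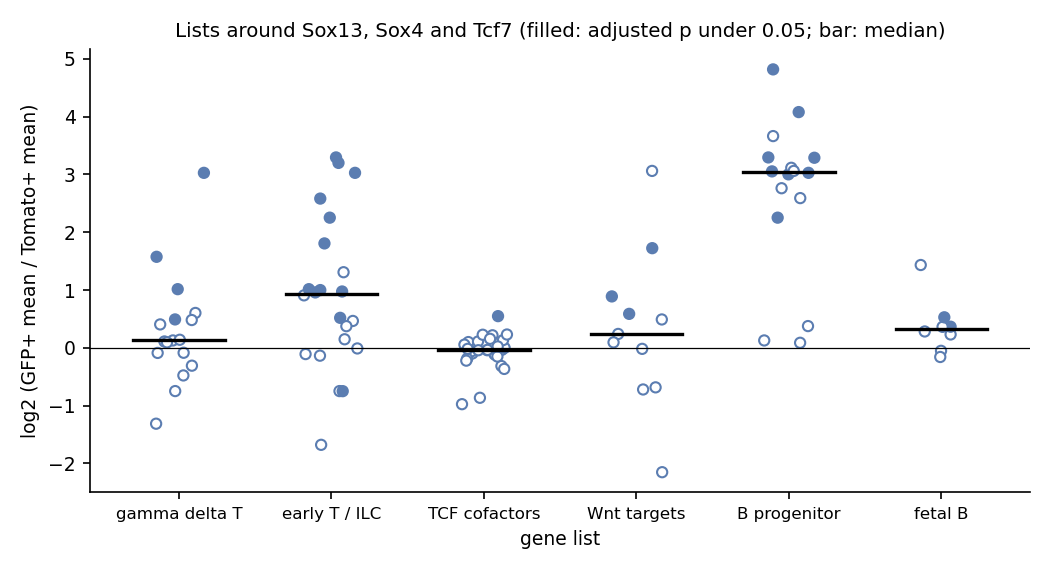
Log2 ratio of the GFP+ over the Tomato+ mean (vertical axis) for each measured gene of 6 lists (horizontal axis), with filled points past the authors' adjusted p of 0.05 and a bar at the list's median. Medians are 0.13 for gamma delta T genes, 0.93 for early T and innate lymphoid genes, -0.04 for TCF cofactors, 0.24 for Wnt targets, 3.04 for B progenitor genes and 0.32 for fetal B genes.

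Markers of other cells also differed between the fractions, some sets higher and others lower in GFP+. Their part in the rise of Sox13, Sox4 and Tcf7 was not tested. Of 16 listed markers of mature T and NK cells 5 were measured, 0 passed (2 at an unadjusted p under 0.05 in the authors' deposited table), and their summed means were 237 in GFP+ and 176 in Tomato+. The remaining 11, Cd3e, Trac and Trdc among them, were not analysed here. Of 13 measured macrophage markers 10 rose and 0 fell, against 4.86% and 2.64% of all rows. Macrophage markers had summed means of 1866 in GFP+ and 570 in Tomato+. Of 15 hepatoblast markers 12 rose and 0 fell (4090 in GFP+, 2194 in Tomato+). The hepatoblast markers Dlk1 and Krt18 had lower means in GFP+ without passing, at 811 and 103 in GFP+ and 993 and 169 in Tomato+. Of 11 erythroid markers 7 rose and 1 fell (37483 in GFP+, 11912 in Tomato+). Most of the erythroid sums came from the globin genes Hba-a2 and Hbb-b1, at 16122 and 15589 in GFP+ and 4190 and 4780 in Tomato+. Among the 7 that rose, Rhag did so by only 0.15 on the log2 scale. Gata1 was the gene that fell, and Epor, Klf1 and Ermap had lower means in GFP+ without passing. Stem cell, megakaryocyte and endothelial markers went the other way, with 10 of 13, 9 of 11 and 7 of 12 lower in GFP+ and 0 higher. Their summed means were 10925, 2208 and 1772 in GFP+ and 16464, 4758 and 3749 in Tomato+. Of the gate's own genes, Slamf1, which encodes CD150, fell to 27.9 in GFP+, against 119 in Tomato+ (adjusted p = 4.95e-08, the authors' deposited table). Kit and Ly6a, which encodes Sca1, did not pass, with means of 4087 and 59.5 in GFP+ and 4950 and 70.1 in Tomato+.

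The rows most like each gene were found by the distance between their log2 means over the 2 fractions, which is all that likeness can rest on here. Nearest to Sox13 were AK008665, Bin1 and Sh2d5, at distances of 0.05, 0.06 and 0.12. Nearest to Sox4 were Mdh2, Prdx1 and Erh, at 0.01, 0.04 and 0.07, of which Erh passed the authors' adjusted p and the other two did not. Nearest to Tcf7 were Slc28a3, AK158291 and Abtb2, at 0.10, 0.10 and 0.14. Slc28a3, with means of 66.3 in GFP+ and 21.2 in Tomato+ like those of Tcf7, did not pass the authors' adjusted p of 0.05, while Tcf7 did.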

How the data were processed

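RNA of 4 GFP+ and 4 Tomato+ libraries was compared by the authors in 1 deposited table. Per the submitters' processing notes, DESeq, bedtools, TopHat, TopHat2 2.0.11 and Bowtie2 2.2.1 were used with build mm9, and no role is given for each. Per the file headers, the authors' values are mean normalized counts (a signal averaged over all libraries and over each fraction), their fold ratio, the log2 of that ratio, and p-values before and after adjustment. The authors' ratio is Tomato+ over GFP+, and its sign was turned, so positive log2 values mean higher in GFP+. A repeated header line was dropped, which left 14268 rows with 14033 symbols. The authors' adjusted p-values equalled a Benjamini-Hochberg adjustment over all rows within 5.28e-08. Total depth per library is unknown, no counts per library were analysed here, and no test was rerun. A row was called at the authors' adjusted p under 0.05. Where a symbol had several rows, the row with the highest mean was read. Of 248 genes in 17 lists, 197 were measured, 2 of them under another name in the RefSeq table. The named genes were the 3 described, all measured Sox, TCF/LEF and TOX genes, up to 6 called genes of each other list by p-value, and the 3 nearest rows. The members and lists were chosen with earlier results of these data known. Near-identical genes may share reads, which makes values of Hmgb1, Hmgb2 and globin genes uncertain. The use of strand in counting is not stated in the sources at hand. The alternatives were other thresholds and adjustments, a minimum mean of 50, a minimum change, 1 row per symbol, equal totals and centring. The recomputed adjustment was tested on simulated data. Computations used Python 3.11.15, pandas 2.3.3 and numpy 2.4.6.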

Additional observations from a re-analysis of the deposited data

How the results depend on the processing

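No paired analysis was possible because only means over each fraction were analysed. The planned replicate block and the omission of 1 library at a time were thus not run, and as each of the 3 genes has 1 row, no other row could be read. Other thresholds, adjustments and row filters leave the log2 difference of a gene as it is, so they could not turn its direction. Equal totals and centring lower every row by the same amount, and Sox13, Sox4 and Tcf7 stayed higher in GFP+ under both. Their log2 differences of 0.92, 0.43 and 1.72 became 0.77, 0.27 and 1.57 with equal totals, which lowers every value by 0.16, and 0.89, 0.40 and 1.69 with centring. Equal totals turned the medians of the gamma delta T and the other HMG-box lists to -0.03 and -0.06, and that over all rows to -0.15. Under a Bonferroni adjustment of the authors' p-values, stricter by construction, Sox4 (0.43, adjusted p = 1) and Tcf7 (1.72, adjusted p = 0.172) no longer passed. Where a log2 difference of at least 1 was also required, Sox13 (0.92) and Sox4 (0.43) no longer passed. Tcf7 has an overall mean of 42.5 and gets no value with a minimum mean of 50. The 1069 calls over all rows became 699 at an adjusted p under 0.01, 308 with Bonferroni and 492 with that minimum difference, and lay between 965 and 1374 under the other alternatives. The Sox family's median log2 of -0.24 was 0.06 once members with a mean under 50 were dropped, and that of the TCF/LEF genes turned from 0.83 to -0.07, which is the value of Tcf7l2 alone. The Sox members dropped were Sox7, Sox11 and Sox17, all with negative log2 differences, and 0.06 is the value of Sox6.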
